A study of Mus musculus with 26 samples.

Results

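The matrix metalloproteinases (Mmp), the ADAMTS proteases (Adamts), the ADAMTS-like proteins that lack a protease domain (Adamtsl) and the tissue inhibitors of metalloproteinases (Timp) were described across stresses in NIH3T3, an established fibroblast line from mouse embryos. Members were all gene symbols of these 4 names followed by a number, which gave 51 of the 20430 symbols in the RNA tables, all of which were also among the 19941 symbols of the ribosome footprint tables. They comprised 23 Mmp, 19 Adamts, 5 Adamtsl and 4 Timp genes. The study asked how transcription that runs past gene ends under stress reaches neighbouring genes.

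PolyA-selected RNA was sequenced in 16 libraries of 8 groups, and ribosome footprints, the mRNA fragments protected by ribosomes, in 10 libraries of 5 groups, with 2 replicates per group. The heat experiment (RNA) held an untreated control, cells kept at 44 °C for 2 h and cells kept at 42 °C for 8 h. The H2O2/KCl experiment (RNA and footprints) held another untreated control, oxidative stress by H2O2 for 2 h or 7 h, and osmotic stress by KCl for 2 h or 7 h. The sources used here do not give the concentration of either agent. The labels do not say that the replicates were separate cultures, so p-values measure only the spread between these libraries, which may be technical. The 4 comparisons of H2O2 or KCl with their control share the same 2 control libraries, and so do the 2 heat comparisons.

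These genes act together on the extracellular matrix. MMPs are zinc proteases that are made as inactive precursors and cut collagens, proteoglycans and many cell surface proteins, ADAMTS enzymes cut proteoglycans such as versican and aggrecan or trim procollagens, and TIMPs bind and block the active enzymes. Fibroblasts are a main source of many of them, and several Mmp genes are classical targets of the transcription factor AP-1, which binds the motif TGAGTCA.

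Of the 51 members, 10 Mmp genes lie in a cluster on mouse chromosome 9 (GRCm38, the build mm10), at chr9:7272514-7699585, a span of 427.1 kb. The cluster holds the collagenases Mmp13, Mmp1a and Mmp8, Mmp1b, which is grouped with them here, and the stromelysins Mmp3 and Mmp10. The 120 bases before the start of 4 of its genes are shown, because Mmp13 and Mmp10 were higher in every stress, as described below, and Mmp3 and Mmp1b stand beside them. They are from RefSeq (GRCm38.p6), 5′ to 3′ on the strand of the gene, and the capitals mark TGAGTCA or its reverse complement TGACTCA.
Mmp13: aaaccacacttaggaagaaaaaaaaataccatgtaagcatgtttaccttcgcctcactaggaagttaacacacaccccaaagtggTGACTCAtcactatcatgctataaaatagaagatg
Mmp10: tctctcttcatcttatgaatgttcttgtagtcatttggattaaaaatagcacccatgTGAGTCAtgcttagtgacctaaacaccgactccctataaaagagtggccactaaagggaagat
Mmp3: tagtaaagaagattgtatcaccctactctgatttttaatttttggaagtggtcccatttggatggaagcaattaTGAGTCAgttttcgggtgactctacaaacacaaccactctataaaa
Mmp1b: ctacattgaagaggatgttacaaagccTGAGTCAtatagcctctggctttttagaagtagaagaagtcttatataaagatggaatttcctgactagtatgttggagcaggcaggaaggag
These lie at chr9:7272394-7272513 (Mmp13, plus strand), chr9:7502222-7502341 (Mmp10, plus strand), chr9:7445702-7445821 (Mmp3, plus strand) and chr9:7388027-7388146 (Mmp1b, minus strand). The motif begins 35 bases before the start of Mmp13, 46 before Mmp3, 63 before Mmp10 and 93 before Mmp1b. Searched on both strands in the 300 bases around each start (250 before and 50 after), it was present in 1709 of 32851 promoters of all genes (5.2%). A promoter was given for 36 of the 51 members, with 39 promoters in all. Among these the motif was present in at least 1 promoter of 7 of the 10 members of the cluster (the 4 shown and Mmp1a, Mmp7 and Mmp12) and in 0 of the 26 others. Mmp7 and Mmp12 each had 2 promoters, of which 1 held the motif. Members without a promoter were not searched, among them Mmp2, Mmp9, Mmp19, Adamts4, Adamts5 and Adamts6. A match is a description of letters only, and binding was not measured here.

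RNA libraries held 24441877 to 45244430 counts and footprint libraries 1460751 to 5168537, the lowest being H2O2 at 2 h, replicate 1. Replicates correlated at 0.997 to 0.999 in RNA and 0.961 to 0.980 in footprints (Pearson, across genes, on log2 values scaled to library size). The fibroblast label was met by 7 of 8 fibroblast markers at 1 TPM or more in every RNA library, with summed levels of 3437 to 10020 TPM (a level that allows for transcript length and library size). Markers of endothelium summed to 0.42 to 3.37 TPM with 0 of 4 at 1 TPM throughout, those of epithelium to 8.78 to 19.6 TPM with 1 of 6, and those of macrophages and other leukocytes to 7.74 to 44.8 TPM with 1 of 5 (Cd68). The last sum differed between groups: it was 9.67 and 10 TPM in the H2O2/KCl control, 44.8 and 42.9 TPM with H2O2 at 7 h (Cd68 at 44.7 and 42.6) and 21.5 and 21.1 TPM with KCl at 7 h, where Csf1r was at 16.1 and 15.4 TPM against at most 0.66 TPM in any other group. Itgam reached 1.19 TPM with H2O2 at 2 h, Ptprc stayed at or below 0.05 TPM, and Adgre1, which defines macrophages, was listed at 0 in all 16 libraries. The fibroblast sum also differed between groups. It was 8241 and 8294 TPM in the H2O2/KCl control and lowest, at 3437 and 3468 TPM, with H2O2 at 7 h. The part of these markers in the results was not tested.

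The family was dominated by 4 genes. Mmp14, a membrane-anchored collagenase that also activates Mmp2, had the highest mean level over the 16 RNA libraries at 771 TPM (464 to 1018), followed by Timp2 at 584 TPM (428 to 699), Timp1 at 364 TPM (244 to 541) and Timp3 at 152 TPM (80.6 to 309.7). The ranges of Timp2 and Timp1 overlapped, as did those of Mmp14 and Timp2. Mmp14 alone made up 72.2% to 90.8% of the summed TPM of all Mmp genes. Adamts1 followed at a mean of 94.6 TPM and Mmp11 at 49.3 TPM. All members together accounted for 0.166% to 0.280% of all TPM.

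At the other end, 25 of the 51 members had a mean of at least 1 TPM, and Mmp7 and Mmp8 were listed at 0 in all 16 RNA libraries. Timp4 was at 0 in 12 of 16 libraries and reached at most 0.05 TPM. The low-count filter left 34 members tested in the heat RNA libraries, 35 in the H2O2/KCl RNA libraries and 25 in the footprints. A total of 37 members entered at least 1 RNA fit and 14 entered none. Untested members did not exceed 0.23 TPM in the heat RNA libraries, 0.19 TPM in the H2O2/KCl RNA libraries and 2.17 TPM in the footprints.

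**Figure D1:**
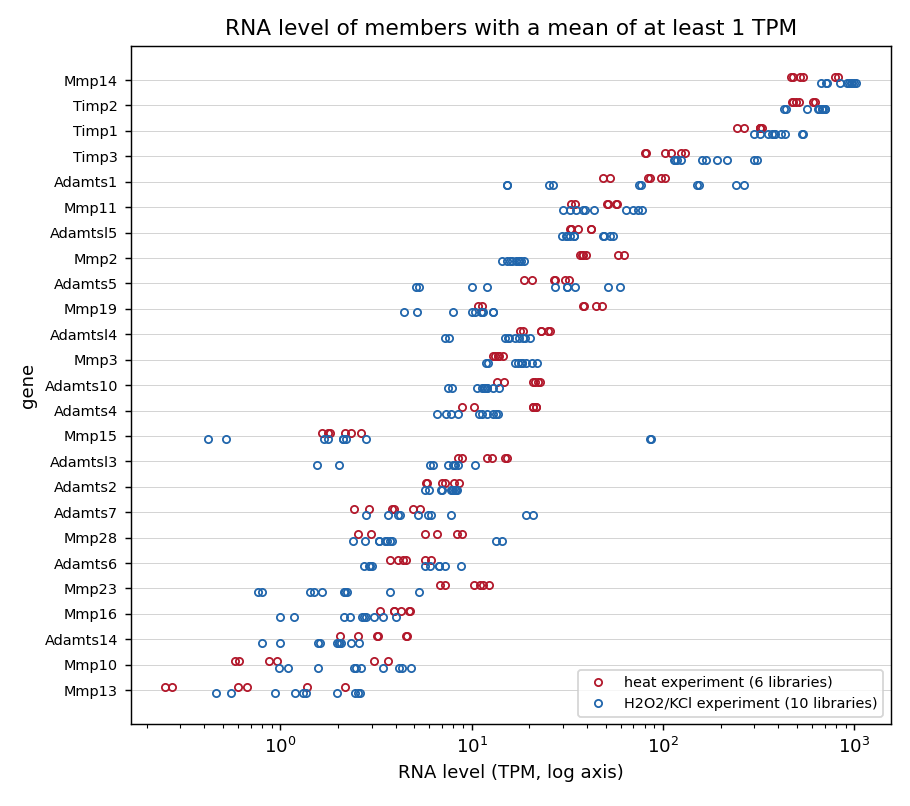
RNA level (TPM, log axis) of the 25 members with a mean of at least 1 TPM, 1 point per library, with the 6 heat libraries in red and the 10 H2O2/KCl libraries in blue. Mmp14, Timp2, Timp1 and Timp3 lie highest, and Mmp15 and Adamts1 spread widely over the libraries.

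Each stress was compared with its control by edgeR's quasi-likelihood test on the counts, with Benjamini-Hochberg adjustment over all genes, and a gene was called at an adjusted p below 0.05. Log2 fold changes are stress over control with the standard error of the fit (SE, 2 libraries per group). The RNA came from whole cultures, so fewer cells expressing a gene and less RNA per cell cannot be told apart. Most of the transcriptome was called in these comparisons, and the members' counts are to be read against that background.

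At 44 °C for 2 h, 7 of 34 tested members rose and 20 fell, while 71% of all tested genes were called (35.4% higher, 35.7% lower), and the median log2 fold change was -0.30 for the members against 0.00 for all genes. At 42 °C for 8 h, 7 rose and 16 fell against 63.6% of all genes (31.7% higher, 31.9% lower), with medians of -0.32 and -0.01. Log2 TPM values are, here and below, log2(TPM + 1). On log2 TPM values the split at 42 °C was 3 higher and 18 lower, on a scale that moved the median of all genes by -0.17. Adamtsl2 enters that median with 0 counts at 42 °C and 8 in the control, at least 2.10-fold lower (against a floor of 3 counts over the group), and that bound too lies below the median.

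With H2O2 for 2 h, 13 of 35 tested members rose and 4 fell against 53.9% of all genes (27.3% higher, 26.5% lower), with medians of 0.14 and 0.00. By 7 h of H2O2, 7 rose and 14 fell against 70.5% (39.4% higher, 31.1% lower), with medians of -0.05 and 0.08. With KCl for 2 h, 11 rose and 5 fell against 54.2% (27.2% higher, 27% lower), with medians of 0.10 and 0.00, while DESeq2 gave 13 higher and 3 lower and log2 TPM values 7 higher and 7 lower (median of all genes moved by -0.11). By 7 h of KCl, 9 rose and 14 fell against 68.8% (37.2% higher, 31.6% lower), with medians of -0.19 and 0.04, and on log2 TPM values 5 rose and 14 fell. Members called higher thus outnumbered those called lower at 2 h of both agents by the count test, and those called lower were the more numerous in the other 4 comparisons.

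Of the 32 members tested in all 6 comparisons, 4 were called in every comparison (Adamts1, Mmp10, Mmp11 and Mmp13), against 10.9% of all genes tested in all 6. Only 2 of the 32, Mmp10 and Mmp13, were called higher in all 6 by edgeR, against 1.62% of all genes. The call of Mmp10 at 42 °C depended on the method, as given below. For Mmp13 in heat the alternative on log2 TPM values was not run, since its mean there was below 1 TPM. Each of the 32 was called at least once, as were 99.3% of all genes.

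**Figure D2:**
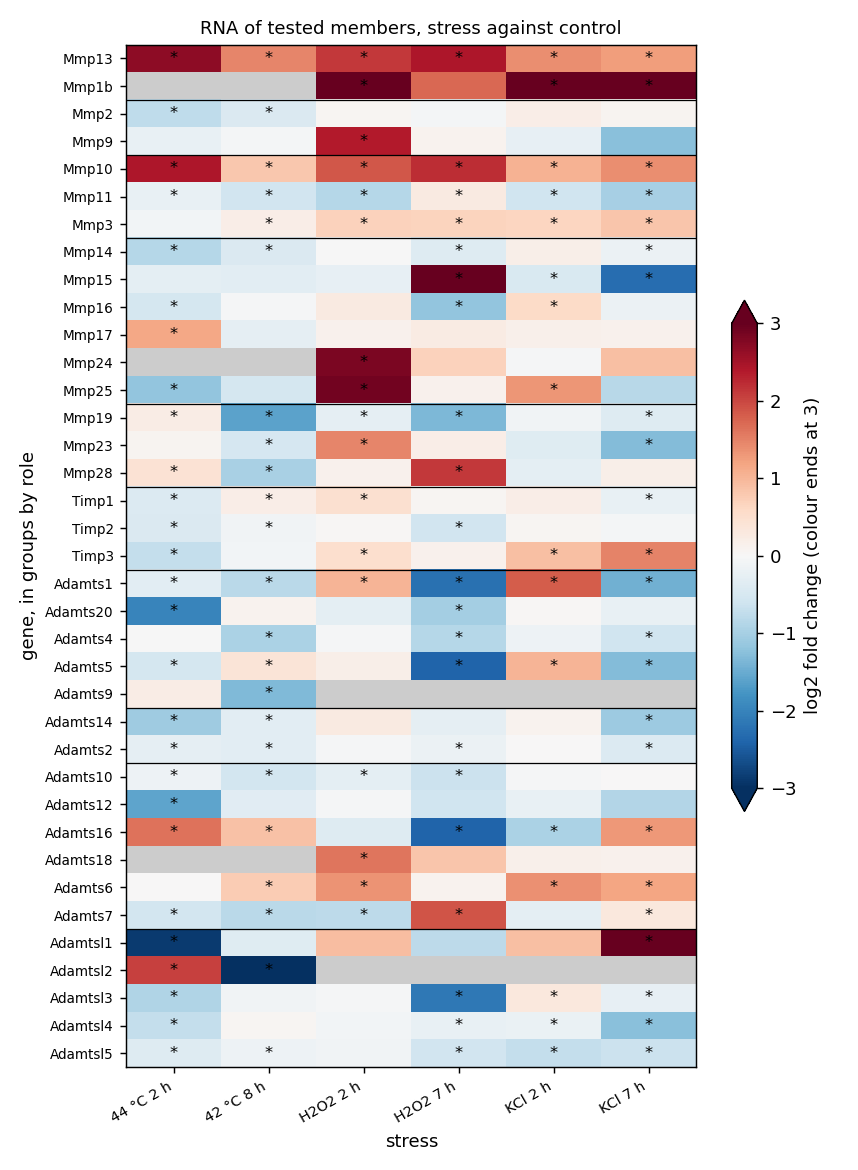
Log2 fold change in RNA of the 37 tested members (rows, grouped by role) in the 6 comparisons of stress with control (columns); stars mark edgeR adjusted p below 0.05, grey marks untested, and colours end at 3 in either direction. The rows of Mmp10 and Mmp13 are higher in each column, and no other row of a member tested in all 6 is starred in 1 direction throughout.

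The collagenase Mmp13 and the stromelysin Mmp10 are both secreted enzymes, cutting fibrillar collagen and a wide range of matrix proteins. Mmp13 was at 0.27 and 0.25 TPM in the heat control, 2.17 and 1.38 TPM at 44 °C and 0.67 and 0.60 TPM at 42 °C (replicates 1 and 2 throughout). In the H2O2/KCl experiment it was at 0.46 and 0.55 TPM in the control, 2.46 and 1.98 TPM with H2O2 at 2 h, 2.59 and 2.54 TPM with H2O2 at 7 h, 1.32 and 1.19 TPM with KCl at 2 h and 0.94 and 1.36 TPM with KCl at 7 h. Both libraries of each stress lay above both control libraries, at levels that stayed low beside those of Mmp14. The log2 fold change of Mmp13 was 2.69 (SE 0.30) at 44 °C, 1.47 (SE 0.36) at 42 °C, 2.13 (SE 0.22) and 2.42 (SE 0.22) at 2 h and 7 h of H2O2, and 1.40 (SE 0.26) and 1.26 (SE 0.26) at 2 h and 7 h of KCl, with edgeR adjusted p from 2.1e-07 to 0.0024.

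Mmp10 was likewise higher with H2O2 than with KCl and higher at 44 °C than at 42 °C. Its level was 0.61 and 0.58 TPM in the heat control, 3.63 and 3.10 TPM at 44 °C and 0.96 and 0.87 TPM at 42 °C. In the H2O2/KCl experiment it was 1.09 and 0.98 TPM in the control, 4.18 and 3.45 TPM with H2O2 at 2 h, 4.31 and 4.84 TPM with H2O2 at 7 h, 1.58 and 2.43 TPM with KCl at 2 h and 2.48 and 2.64 TPM with KCl at 7 h. Again no stress library overlapped its control. The largest log2 fold changes were 2.43 (SE 0.24, edgeR adjusted p = 5e-07) at 44 °C and 2.21 (SE 0.21, edgeR adjusted p = 3.4e-07) at 7 h of H2O2. The smallest was 0.81 (SE 0.29) at 42 °C, with an edgeR adjusted p of 0.026. With all libraries kept, the edgeR call at 42 °C was lost with DESeq2 (0.82, adjusted p = 0.119). It was also lost with limma on log2 TPM values (0.26, adjusted p = 0.0712), where the added 1 shrinks changes of genes near 1 TPM. That call was lost without 42 °C replicate 1 (0.72, adjusted p = 0.129), without control replicate 1 (0.86, adjusted p = 0.0780) and without control replicate 2 (0.78, adjusted p = 0.0949). At 2 h of KCl the value was 1.04 (SE 0.25, edgeR adjusted p = 0.0029), and without KCl 2 h replicate 2 it was 0.70 with an adjusted p of 0.0837.

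Among direct comparisons, Mmp10 and Mmp13 were lower at 42 °C for 8 h than at 44 °C for 2 h, by log2 values of -1.62 (SE 0.23, edgeR adjusted p = 1.4e-05) and -1.22 (SE 0.26, edgeR adjusted p = 0.00072). Both were higher with H2O2 than with KCl. At 2 h the difference was 0.83 (SE 0.21, edgeR adjusted p = 0.0046) for Mmp10 and 0.73 (SE 0.21, edgeR adjusted p = 0.01) for Mmp13. At 7 h it was 0.81 (SE 0.20, edgeR adjusted p = 0.0017) and 1.16 (SE 0.21, edgeR adjusted p = 0.00015). Between 2 h and 7 h of H2O2 neither gene passed the test, with 0.34 (SE 0.18) for Mmp10 and 0.29 (SE 0.18) for Mmp13.

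Mmp3, the stromelysin encoded between them, activates other MMP precursors. With H2O2 it rose by a log2 fold change of 0.68 (SE 0.10) at both 2 h and 7 h, from 12.2 and 11.9 TPM in the control to 20.7 and 18.1 TPM and to 17.4 and 19.1 TPM. With KCl it rose by 0.65 (SE 0.11) at 2 h and 0.84 (SE 0.10) at 7 h, to 16.9 and 18.4 TPM and to 18.4 and 21.9 TPM. The 4 groups lay above the control and close to each other. In heat the levels were 12.9 and 14.6 TPM in the control, 13.3 and 13.7 TPM at 44 °C and 13.9 and 13.8 TPM at 42 °C. In TPM all 4 heated libraries lay within the range of the heat control. In CPM (counts scaled to library size) the control was at 10.2 and 11.5 and 44 °C at 9.86 and 10.5, which overlapped. At 42 °C both libraries, at 12.6 and 12.3 CPM, lay above the control. The value at 44 °C, -0.09 (SE 0.09), did not pass the test. At 42 °C the value of 0.20 (SE 0.08) had an edgeR adjusted p of 0.049. That call was lost with DESeq2 (0.21, adjusted p = 0.191) and with limma on log2 TPM values (0.01, adjusted p = 0.893). It was also lost without 42 °C replicate 1 (0.18), 42 °C replicate 2 (0.22) or control replicate 1 (0.12).

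Mmp1b, which lies beside them and is grouped here with the collagenases, was picked out after its values were seen. It held 2 counts in total in the H2O2/KCl control. The totals were 15 with H2O2 at 2 h, 12 with KCl at 2 h and 43 with KCl at 7 h. With H2O2 at 7 h it held 2 and 3 counts in the 2 libraries and was not called (edgeR adjusted p = 0.22). Scaled for depth, KCl at 7 h against the control is a ratio of 36.7 with a 95% counting interval of 9.57 to 313 (exact, counting error only). Its near copy Mmp1a makes the assignment of these reads uncertain.

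Mmp11, called stromelysin-3, is set apart from that group by its activation inside the cell by furin. Its level was 57.0 and 57.7 TPM in the heat control, 51.0 and 51.5 TPM at 44 °C, 33.1 and 34.6 TPM at 42 °C and 69.2 and 64.2 TPM in the H2O2/KCl control. It was 38.3 and 35.2 TPM with H2O2 at 2 h, 77.9 and 73.7 TPM with H2O2 at 7 h, 43.8 and 39.3 TPM with KCl at 2 h and 30.1 and 32.7 TPM with KCl at 7 h. Mmp11 therefore fell in 5 of the 6 comparisons, from -0.22 (SE 0.05) at 44 °C to -0.996 (SE 0.08) at 7 h of KCl. At 7 h of H2O2 it was higher by 0.27 (SE 0.07, edgeR adjusted p = 0.0042), a call lost without H2O2 7 h replicate 1 (0.15, adjusted p = 0.190) and without control replicate 2 (0.20, adjusted p = 0.0598).

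Of the gelatinases, which cut denatured collagen and basement membrane collagen, Mmp2 fell at 44 °C and 42 °C and was called in none of the 4 comparisons with H2O2 or KCl (edgeR adjusted p from 0.064 to 0.68). Mmp9 was scarce. It was at 0.20 TPM in both H2O2/KCl control libraries and 0.97 and 1.15 TPM with H2O2 at 2 h, higher by a log2 value of 2.39 (SE 0.36, edgeR adjusted p = 7.9e-05). In the other groups of the 2 experiments it lay between 0.02 and 0.34 TPM, below both libraries of H2O2 at 2 h.

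Mmp15 gave the largest fitted log2 change of any tested member in a comparison with control. It encodes a membrane-anchored MMP related to Mmp14, and lies at chr8:95352296-95374293. With H2O2 for 7 h it stood at 85.2 and 86.6 TPM, against 2.80 and 2.19 TPM in the control. With H2O2 at 2 h it was at 2.12 and 2.13 TPM. With KCl it was at 1.78 and 1.69 TPM at 2 h and at 0.52 and 0.42 TPM at 7 h. The high level was thus seen in both libraries of H2O2 at 7 h and in no other group of the experiment. The fold was 36.0 (log2 5.17, SE 0.10, edgeR adjusted p = 2.2e-14) over the control and 42.7 (log2 5.42, SE 0.10, edgeR adjusted p = 3.6e-14) over H2O2 at 2 h. With KCl for 7 h it was lower than in the control, by -2.29 (SE 0.18, edgeR adjusted p = 6.1e-08). At 2 h of KCl the value was -0.45 (SE 0.14, edgeR adjusted p = 0.012), a call lost without control replicate 1 (-0.24, adjusted p = 0.200) and without KCl 2 h replicate 2 (-0.40, adjusted p = 0.0772). Set directly against each other at 7 h, H2O2 exceeded KCl 176-fold (log2 7.46, SE 0.13, edgeR adjusted p = 7.5e-15). In heat it lay between 1.65 and 2.65 TPM in all 6 libraries, and neither comparison passed the test.

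Mmp14 itself fell in both heat groups and kept its first rank among the MMPs in each library. Its level was 795 and 821 TPM in the heat control, 476 and 464 TPM at 44 °C and 517 and 538 TPM at 42 °C, log2 falls of -0.85 (SE 0.04, edgeR adjusted p = 3e-10) and -0.43 (SE 0.04, edgeR adjusted p = 4.1e-07). In the H2O2/KCl control it was 968 and 935 TPM. It was 960 and 916 TPM with H2O2 at 2 h and 1018 and 996 TPM with KCl at 2 h, neither of which passed the test. At 7 h it stood at 667 and 708 TPM with H2O2 (-0.39, SE 0.07, edgeR adjusted p = 0.0002) and at 718 and 842 TPM with KCl (-0.19, SE 0.07, edgeR adjusted p = 0.029). The last call was lost without control replicate 1 (-0.16, adjusted p = 0.139) and without KCl 7 h replicate 1 (-0.09, adjusted p = 0.313).

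The other membrane-bound enzymes were scarce. Mmp25, which is held to the membrane by a lipid anchor, rose with H2O2 at 2 h from 0.32 and 0.42 TPM to 2.43 and 3.06 TPM, a log2 difference of 2.90 (SE 0.21, edgeR adjusted p = 7.1e-08). With KCl at 2 h it was at 0.76 and 0.88 TPM (1.33, SE 0.27, edgeR adjusted p = 0.00071). At 7 h it stood at 0.35 and 0.36 TPM with H2O2 and at 0.20 and 0.21 TPM with KCl, neither called. In heat it was at 0.82 and 0.81 TPM in the control, 0.38 and 0.39 TPM at 44 °C (-1.18, SE 0.26, edgeR adjusted p = 0.00098) and 0.58 and 0.42 TPM at 42 °C, which was not called. Its 2 h level was higher with H2O2 than with KCl by 1.57 (SE 0.20, edgeR adjusted p = 2e-05). Mmp16 fell with H2O2 at 7 h, from 2.81 and 2.66 TPM to 1.18 and 1 TPM (-1.18, SE 0.16, edgeR adjusted p = 1.4e-05).

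Among the remaining MMPs, Mmp19 is a secreted enzyme that cuts basement membrane proteins, Mmp28 (epilysin) is a secreted enzyme made by keratinocytes among other cells, and Mmp23 is membrane-bound and shed by cleavage. Mmp19 was at 38.2 and 38.4 TPM in the heat control, 48.2 and 44.7 TPM at 44 °C and 10.8 and 11.3 TPM at 42 °C. It was therefore higher at 44 °C (0.22, SE 0.05, edgeR adjusted p = 0.0012) and lower at 42 °C (-1.61, SE 0.06, edgeR adjusted p = 2.2e-11), a difference between the heat groups of -1.82 (SE 0.06). With H2O2 at 7 h it fell from 12.89 and 12.95 TPM to 4.44 and 5.16 TPM (-1.35, SE 0.12, edgeR adjusted p = 1.4e-07). The levels of the 2 controls, of separate experiments, were not tested against each other. With H2O2 at 2 h Mmp19 was at 11.4 and 10.03 TPM (-0.27, SE 0.11, edgeR adjusted p = 0.046). That call was lost with DESeq2 (-0.27, adjusted p = 0.0779) and with limma on log2 TPM values (-0.25, adjusted p = 0.0914). It was also lost without H2O2 2 h replicate 2 (-0.18), control replicate 1 (-0.26) or control replicate 2 (-0.29). With KCl Mmp19 was at 11.3 and 11.2 TPM at 2 h, which was not called. At 7 h of KCl it was at 7.94 and 10.4 TPM (-0.39, SE 0.11, edgeR adjusted p = 0.0059), a call lost without KCl 7 h replicate 1 (-0.21).

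Mmp28 was at 6.55 and 5.70 TPM in the heat control, 8.88 and 8.41 TPM at 44 °C and 2.55 and 2.97 TPM at 42 °C, so it too was higher at 44 °C (0.43, SE 0.09, edgeR adjusted p = 0.00065) and lower at 42 °C (-0.97, SE 0.11, edgeR adjusted p = 2.2e-06). With H2O2 for 7 h it reached 14.4 and 13.4 TPM against 3.27 and 3.50 TPM in the control, a log2 difference of 2.13 (SE 0.10, edgeR adjusted p = 1.4e-10). With H2O2 at 2 h (3.61 and 3.81 TPM) and with KCl at 2 h (2.78 and 2.40 TPM) and 7 h (3.29 and 3.74 TPM) it was not called. Mmp23 rose with H2O2 at 2 h, from 2.18 and 2.15 TPM to 3.73 and 5.29 TPM (1.47, SE 0.20, edgeR adjusted p = 2.8e-05). It stood at 0.80 and 0.76 TPM after 7 h of KCl (-1.30, SE 0.30, edgeR adjusted p = 0.0013). With H2O2 at 7 h (1.5 and 2.22 TPM) and KCl at 2 h (1.43 and 1.65 TPM) it was not called. In heat it was at 12.3 and 11.03 TPM in the control, 11.4 and 10.3 TPM at 44 °C (not called) and 7.21 and 6.80 TPM at 42 °C (-0.49, SE 0.10, edgeR adjusted p = 0.00085).

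Of the inhibitors, Timp1, Timp2 and Timp3 were among the most abundant members. At 44 °C all 3 tested TIMP genes fell, where 35.7% of all tested genes were called lower. Timp1 went from 319.6 and 322 TPM in the heat control to 263 and 244 TPM (-0.41, SE 0.04), Timp2 from 608 and 623 TPM to 478 and 469 TPM (-0.44, SE 0.04) and Timp3 from 129.7 and 124 TPM to 80.6 and 81.7 TPM (-0.71, SE 0.05), with edgeR adjusted p of 1e-06, 1.6e-07 and 6.6e-09. The libraries of these groups did not overlap. At 42 °C, Timp1 was at 329 and 322 TPM (0.21, SE 0.04, edgeR adjusted p = 0.00071), a call lost on log2 TPM values (0.02, adjusted p = 0.662), and Timp3 at 102 and 109.8 TPM (-0.07, SE 0.04) was not called. Timp2 at 493 and 512 TPM was lower by -0.10 (SE 0.04, edgeR adjusted p = 0.029), a call lost when any 1 of the 4 libraries was left out: -0.09 and -0.12 without 42 °C replicates 1 and 2 (adjusted p = 0.148 and 0.0501), and -0.12 and -0.09 without control replicates 1 and 2 (adjusted p = 0.0588 and 0.151).

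Timp3, which binds to the matrix and also inhibits ADAMTS and ADAM enzymes, lies at chr10:86300412-86349505. From 118 and 114 TPM in the H2O2/KCl control it rose to 190.4 and 216 TPM with KCl at 2 h and to 297 and 309.7 TPM with KCl at 7 h. These are log2 fold changes of 0.90 (SE 0.07, edgeR adjusted p = 6.7e-08) and 1.49 (SE 0.07, edgeR adjusted p = 4.2e-10), and the later level exceeded the earlier by 0.59 (SE 0.07, edgeR adjusted p = 2.3e-06). With H2O2 it was at 159.8 and 167 TPM at 2 h (0.50, SE 0.07, edgeR adjusted p = 2.6e-05) and at 115 and 123 TPM at 7 h, which was not called. At 7 h Timp3 was lower with H2O2 than with KCl by -1.37 (SE 0.07, edgeR adjusted p = 1.7e-10).

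Timp1, a soluble inhibitor, was at 414 and 355 TPM in the H2O2/KCl control and 534 and 541 TPM with H2O2 at 2 h (0.48, SE 0.08, edgeR adjusted p = 0.00015). It was at 382 and 372 TPM with H2O2 at 7 h and at 433 and 383 TPM with KCl at 2 h, both overlapping the control and not called. With KCl at 7 h, 298 and 320.3 TPM, its value of -0.22 (SE 0.08) had an edgeR adjusted p of 0.026. Without control replicate 1 it was -0.09 (adjusted p = 0.354) and without KCl 7 h replicate 1 it was -0.18 (adjusted p = 0.149). Timp2, which also takes part in the activation of Mmp2 by Mmp14, fell with H2O2 at 7 h from 681 and 674 TPM to 428 and 439.9 TPM (-0.56, SE 0.06, edgeR adjusted p = 2.1e-06). It was not called at 2 h of H2O2 (698 and 699 TPM), 2 h of KCl (645 and 679 TPM) or 7 h of KCl (567 and 652 TPM).

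The proteoglycanases Adamts1 and Adamts5, which cut versican and aggrecan, are neighbours on chromosome 16, at chr16:85793827-85803113 and chr16:85858157-85901125 with a gap of 55.0 kb. Adamts1 was at 74.7 and 76.8 TPM in the H2O2/KCl control. At 2 h it was at 151 and 154 TPM with H2O2 and 240.1 and 265 TPM with KCl, and at 7 h at 15.3 and 15.4 TPM with H2O2 and 26.4 and 25.4 TPM with KCl. No 2 of these 5 groups overlapped: both stresses lay above the control at 2 h and below it at 7 h. The log2 fold changes were 1.01 (SE 0.06, edgeR adjusted p = 8.1e-09) and -2.23 (SE 0.07, edgeR adjusted p = 1.3e-12) at 2 h and 7 h of H2O2, and 1.83 (SE 0.06, edgeR adjusted p = 4.5e-11) and -1.44 (SE 0.06, edgeR adjusted p = 3.1e-10) at 2 h and 7 h of KCl. From 2 h to 7 h the level fell 9.42-fold with H2O2 and 9.65-fold with KCl.

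Adamts5 moved in a similar way. From 27.1 and 31.5 TPM in the control it went to 51.3 and 59.8 TPM with KCl at 2 h (1.01, SE 0.09, edgeR adjusted p = 6.7e-07) and to 12.01 and 9.98 TPM with KCl at 7 h (-1.31, SE 0.10, edgeR adjusted p = 5e-08). With H2O2 it was at 31.4 and 34.5 TPM at 2 h, which did not pass the test (0.17, SE 0.09, edgeR adjusted p = 0.14), and at 5.30 and 5.12 TPM at 7 h (-2.41, SE 0.11, edgeR adjusted p = 8.2e-11). At 2 h both genes were lower with H2O2 than with KCl, by -0.82 (SE 0.06) for Adamts1 and -0.84 (SE 0.09) for Adamts5, and at 7 h by -0.78 (SE 0.07) and -1.10 (SE 0.11), with edgeR adjusted p of 4.9e-06 or below in each.

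In heat these neighbours parted. Adamts1 was at 97.6 and 103 TPM in the control, 85.6 and 83.1 TPM at 44 °C (-0.31, SE 0.05) and 48.3 and 53 TPM at 42 °C (-0.80, SE 0.05). Adamts5 was at 27.3 and 27.0 TPM in the control, 20.6 and 18.8 TPM at 44 °C (-0.53, SE 0.05) and 30.6 and 32.1 TPM at 42 °C (0.39, SE 0.04). All 4 passed the test, so at 42 °C Adamts1 was lower and Adamts5 higher than in the control. Relative to 44 °C, Adamts1 was lower at 42 °C by -0.49 (SE 0.05) and Adamts5 higher by 0.92 (SE 0.05).

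**Figure D3:**
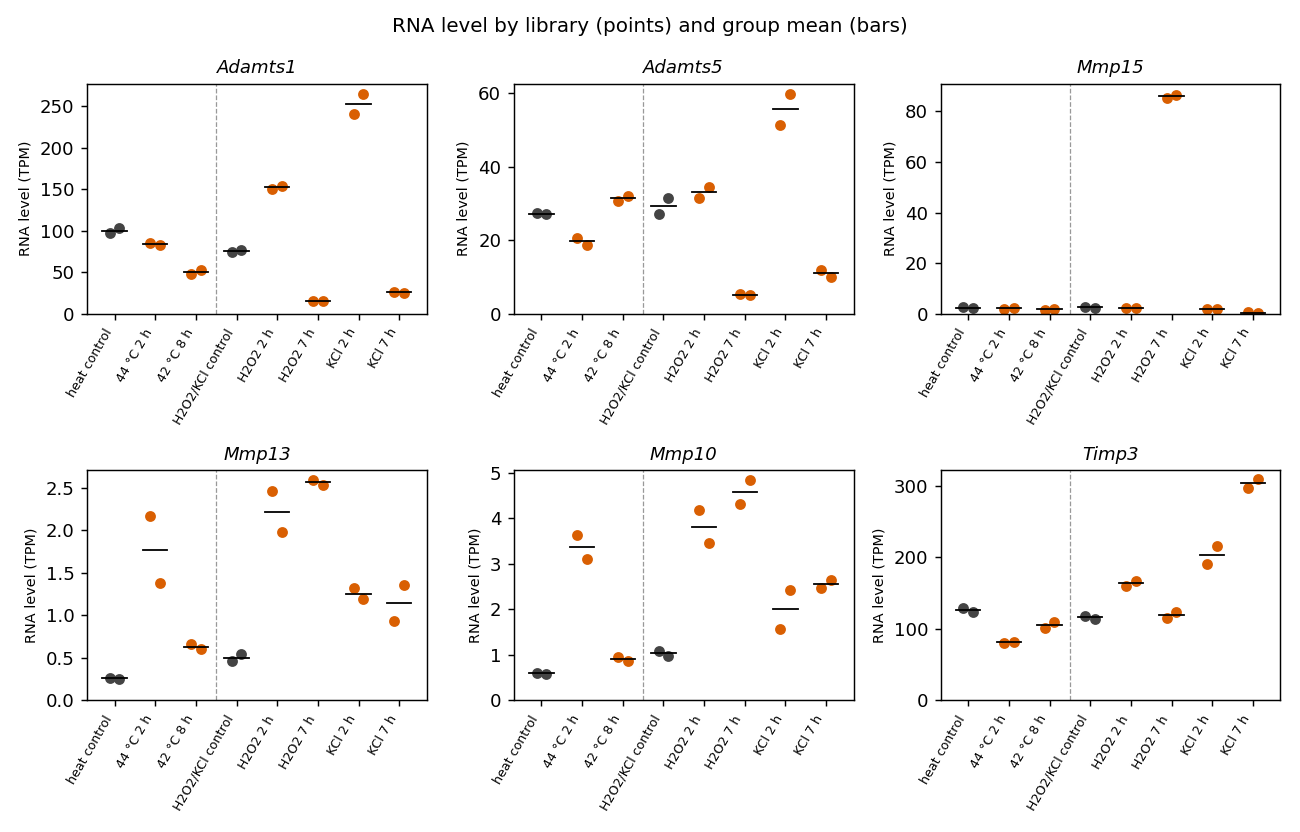
RNA level (TPM) of Adamts1, Adamts5, Mmp15, Mmp13, Mmp10 and Timp3 in each of the 16 libraries (points) with the mean of each group of 2 (line); the dashed line separates the heat experiment from the H2O2/KCl experiment. Adamts1 peaks at 2 h of KCl (240.1 and 265 TPM), Mmp15 stands out at 7 h of H2O2 (85.2 and 86.6 TPM) and Timp3 is highest at 7 h of KCl (297 and 309.7 TPM).

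Of the further proteoglycanases, Adamts4 was at 21.0 TPM in both heat control libraries, 21.6 TPM in both libraries at 44 °C and 8.91 and 10.3 TPM at 42 °C, and the fall at 42 °C was -0.94 (SE 0.07, edgeR adjusted p = 4e-08). With H2O2 at 7 h it fell from 12.98 and 13.3 TPM to 6.56 and 7.31 TPM (-0.85, SE 0.09, edgeR adjusted p = 1.1e-06), and with KCl at 7 h to 7.78 and 8.45 TPM (-0.60, SE 0.09, edgeR adjusted p = 3.7e-05). At 2 h neither H2O2 (13.8 and 12.1 TPM) nor KCl (11.4 and 10.9 TPM) gave a call. Adamts20 was below 1 TPM in all 16 libraries. It was at 0.89 and 0.68 TPM in the heat control and 0.35 and 0.19 TPM at 44 °C (-1.97, SE 0.30, edgeR adjusted p = 3.6e-05), with 0.64 and 0.58 TPM at 42 °C, which was not called. With H2O2 at 7 h it fell from 0.60 and 0.76 TPM to 0.28 and 0.29 TPM (-1.03, SE 0.30, edgeR adjusted p = 0.0065). The other 3 groups, at 0.42 to 0.75 TPM, overlapped the control and were not called. In the proteoglycanase group as a whole, 4 of 4 tested genes fell with H2O2 at 7 h and 3 of 4 with KCl at 7 h, where 31.1% and 31.6% of all genes were called lower, and no gene of the group was called lower at 2 h of either agent.

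The procollagen N-proteinases, which remove the amino-terminal propeptide of fibrillar procollagens, were represented by 2 tested genes, Adamts2 and Adamts14. Both fell at 44 °C, at 42 °C and at 7 h of KCl, where 35.7%, 31.9% and 31.6% of all genes were called lower. In these 3 comparisons their falls ran from -0.28 (SE 0.06) for Adamts2 at 44 °C to -1.09 (SE 0.14) for Adamts14 at 7 h of KCl. At 7 h of H2O2 only Adamts2 was called lower, against 31.1% of all genes. Neither was called at 2 h of H2O2 or KCl.

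Among the other ADAMTS genes, Adamts7, which cuts cartilage oligomeric matrix protein, was at 5.91 and 5.24 TPM in the H2O2/KCl control and 19.2 and 20.9 TPM with H2O2 at 7 h. That was a rise of 1.88 (SE 0.11, edgeR adjusted p = 2.3e-09), after a fall at 2 h to 3.66 and 2.80 TPM (-0.79, SE 0.13, edgeR adjusted p = 0.00016). With KCl it was at 4.21 and 4.14 TPM at 2 h (not called) and 6.10 and 7.83 TPM at 7 h (0.32, SE 0.12, edgeR adjusted p = 0.03). The last call was lost without control replicate 1 (0.38, adjusted p = 0.0503), without control replicate 2 (0.27, adjusted p = 0.146) and without KCl 7 h replicate 2 (0.13, adjusted p = 0.414). Heat lowered it, from 4.92 and 5.37 TPM to 3.93 and 3.85 TPM at 44 °C (-0.55, SE 0.10, edgeR adjusted p = 0.0002) and to 2.42 and 2.90 TPM at 42 °C (-0.80, SE 0.10, edgeR adjusted p = 1.4e-05).

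Adamts6 was at 2.89 and 2.94 TPM in the H2O2/KCl control and rose with H2O2 at 2 h to 6.76 and 8.78 TPM (1.34, SE 0.11), with KCl at 2 h to 6.72 and 7.21 TPM (1.36, SE 0.11) and with KCl at 7 h to 5.71 and 6.06 TPM (1.18, SE 0.11), with edgeR adjusted p of 5.1e-07 or below. After 7 h of H2O2 it was at 2.75 and 3 TPM, on either side of the control libraries, and was not called. At 42 °C it rose from 4.38 and 3.72 TPM to 6.13 and 5.70 TPM (0.76, SE 0.08, edgeR adjusted p = 1.8e-06), and at 44 °C it was at 4.14 and 4.51 TPM and not called. The 2 h responses to H2O2 and KCl differed by -0.02 (SE 0.11), within error of 0, while at 7 h the gene was lower with H2O2 than with KCl by -1.07 (SE 0.12, edgeR adjusted p = 1.1e-06).

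Adamts16 was scarce and moved in opposite directions. It was at 0.58 and 0.68 TPM in the heat control, 2.04 and 2.17 TPM at 44 °C (1.63, SE 0.19, edgeR adjusted p = 2.4e-06) and 1.06 and 0.98 TPM at 42 °C (0.87, SE 0.20, edgeR adjusted p = 0.0019). With KCl it was at 0.27 and 0.29 TPM at 2 h and 1.63 and 1.34 TPM at 7 h, against 0.72 and 0.51 TPM in the control. The rise at 7 h was 1.31 (SE 0.22, edgeR adjusted p = 9.8e-05). The fall at 2 h was -0.96 (SE 0.30, edgeR adjusted p = 0.015), a call lost with DESeq2 (-0.95, adjusted p = 0.0709). It was also lost without control replicate 1 (-0.65), KCl 2 h replicate 1 (-0.89) or KCl 2 h replicate 2 (-1.04). With H2O2 Adamts16 was at 0.54 and 0.43 TPM at 2 h (not called) and at 0.12 TPM in both libraries at 7 h (-2.40, SE 0.36, edgeR adjusted p = 3.5e-05). At 7 h the gene was thus lower with H2O2 than with KCl, by -3.70 (SE 0.32, edgeR adjusted p = 9.1e-08).

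The ADAMTS-like proteins have no protease activity, and several bind fibrillin microfibrils in the matrix. All 5 were called at 44 °C, 4 of them lower, where 71% of all tested genes were called and 35.7% were called lower. The scarce Adamtsl1 was at 0.34 and 0.35 TPM in the heat control and 0.06 and 0.05 TPM at 44 °C (-2.88, SE 0.33, edgeR adjusted p = 2.2e-06). At 42 °C it was at 0.25 and 0.22 TPM and not called. In the H2O2/KCl experiment it was at 0.03 and 0.04 TPM in the control and 0.27 and 0.33 TPM with KCl at 7 h (3.06, SE 0.41, edgeR adjusted p = 1.3e-05), while its 3 other stress groups, at 0.01 to 0.11 TPM, were not called. Adamtsl3 fell with H2O2 at 7 h from 8.04 and 8.14 TPM to 1.55 and 2.03 TPM (-2.14, SE 0.11, edgeR adjusted p = 4.3e-10) and at 44 °C from 15.2 and 14.99 TPM to 8.45 and 8.94 TPM (-0.90, SE 0.05, edgeR adjusted p = 2.8e-09). Adamtsl4 fell with KCl at 7 h from 20.1 and 19.1 TPM to 7.64 and 7.24 TPM (-1.26, SE 0.08, edgeR adjusted p = 8e-09) and at 44 °C from 25.7 and 25.01 TPM to 17.8 and 18.5 TPM (-0.73, SE 0.05, edgeR adjusted p = 3.1e-08).

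The direct comparisons gave the following counts of members. Between 42 °C and 44 °C, 16 were higher and 13 lower at 42 °C, against 75.1% of all genes called (37.9% higher, 37.2% lower). On log2 TPM values, where the median of all genes moved by -0.21, 9 were higher and 11 lower. All 3 tested TIMP genes were among the 16, and Timp1, Timp2 and Timp3 were higher at 42 °C by 0.62 (SE 0.04), 0.34 (SE 0.04) and 0.63 (SE 0.05). Between H2O2 and KCl, 10 were higher and 8 lower with H2O2 at 2 h against 51.3% (27% higher, 24.2% lower), with 7 higher and 3 lower on log2 TPM values, and 12 were higher and 15 lower at 7 h against 78.4% (41% higher, 37.4% lower). Between the times, 4 were higher and 20 lower at 7 h than at 2 h of H2O2 against 73.4% (37.3% higher, 36.1% lower). For KCl 6 were higher and 15 lower against 68.8% (35.1% higher, 33.7% lower), with 3 higher and 14 lower on log2 TPM values. The median log2 difference of the members between the times was -0.57 for H2O2 and -0.26 for KCl, against 0.00 for all genes in both.

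Ribosome footprints report the mRNA engaged by ribosomes. The 25 members tested gave 2 calls with H2O2 at 2 h, both higher, against 1.91% of all genes called (1.14% higher, 0.768% lower), 5 higher and 4 lower with H2O2 at 7 h against 27.7% (17.2% higher, 10.6% lower), 2 higher with KCl at 2 h against 6.86% (1.79% higher, 5.06% lower) and 1 higher and 2 lower with KCl at 7 h against 20.4% (10.5% higher, 9.83% lower). The median log2 fold change of the 25 was 0.25, -0.22, 0.11 and -0.25 in that order, and between -0.02 and 0.01 for all genes. In footprints the inhibitors Timp1 (mean 891 TPM) and Timp2 (673 TPM) stood at the top with Mmp14 (663 TPM), Timp3 (478 TPM) and Adamts1 (156 TPM).

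Adamts1 moved in footprints as in RNA at 2 h of both agents and at 7 h of H2O2. Its footprints were 199 and 328 CPM (counts scaled to library size) in the control, 822 and 569 CPM with H2O2 at 2 h, 78.6 and 83.2 CPM with H2O2 at 7 h and 1095 and 1318 CPM with KCl at 2 h, and no group overlapped the control. The log2 fold changes were 1.40 (SE 0.25, edgeR adjusted p = 0.013), -1.70 (SE 0.25, edgeR adjusted p = 0.0003) and 2.20 (SE 0.25, edgeR adjusted p = 0.00039). With KCl at 7 h, at 189 and 178 CPM, its footprints were not called, while its RNA was lower (log2 fold change -1.44, SE 0.06). The call at 2 h of H2O2 was lost without H2O2 2 h replicate 1 (1.11, adjusted p = 0.0664), without control replicate 1 (1.07, adjusted p = 0.0999), with only the groups compared (adjusted p = 0.135) and on log2 TPM values (adjusted p = 0.0547).

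Adamts5 footprints were at 47.7 and 79.7 CPM in the control, 163 and 138 CPM with H2O2 at 2 h (1.24, SE 0.24, edgeR adjusted p = 0.021), 14.2 and 12.96 CPM with H2O2 at 7 h (-2.22, SE 0.27, edgeR adjusted p = 5.8e-05) and 121 CPM in both libraries of KCl at 2 h (0.93, SE 0.24, edgeR adjusted p = 0.035). These groups did not overlap the control. With KCl at 7 h, at 38.7 and 50.5 CPM, the libraries overlapped those of the control and were not called (-0.51, SE 0.25, edgeR adjusted p = 0.16). Both calls at 2 h were lost with only the groups compared (edgeR adjusted p = 0.157 for H2O2 and 0.0701 for KCl). Both were also lost on log2 TPM values (limma adjusted p = 0.0798 for H2O2 and 0.087 for KCl). The call at 2 h of H2O2 was lost without H2O2 2 h replicate 1 (1.12, adjusted p = 0.0754) and without control replicate 1 (0.91, adjusted p = 0.148). That at 2 h of KCl was lost without control replicate 1 (0.65, adjusted p = 0.231), without KCl 2 h replicate 1 (0.93, adjusted p = 0.135) and without KCl 2 h replicate 2 (0.93, adjusted p = 0.139).

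The Mmp15 rise was as plain in footprints. Its counts were 10 and 5 in the control and 606 and 510 with H2O2 at 7 h, or 2.45 and 1.37 against 173 and 147 CPM, a log2 difference of 6.34 (SE 0.37, edgeR adjusted p = 2.4e-07). In the other 3 stress groups it held 2 to 8 counts per library and was not called. Mmp28 rose with H2O2 at 7 h from 1.71 and 1.10 CPM to 14.5 and 16.99 CPM (3.44, SE 0.55, edgeR adjusted p = 0.00051), and Adamts7 from 6.85 and 1.65 CPM to 42.1 and 26.5 CPM (2.97, SE 0.60, edgeR adjusted p = 0.0024).

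Also with H2O2 at 7 h, Mmp11 footprints rose from 23.2 and 18.1 CPM to 46.7 and 49.8 CPM (1.22, SE 0.24, edgeR adjusted p = 0.002). Adamtsl3 fell from 33.0 and 32.4 CPM to 9.68 and 19.0 CPM (-1.19, SE 0.30, edgeR adjusted p = 0.01), a call lost without H2O2 7 h replicate 1 (-0.83, adjusted p = 0.103). Mmp16 fell from 5.38 and 8.52 CPM to 2.56 and 1.15 CPM (-1.87, SE 0.57, edgeR adjusted p = 0.025), a call lost without H2O2 7 h replicate 2 (-1.46, adjusted p = 0.170) and without control replicate 2 (-1.52, adjusted p = 0.139). Each of these 3 moved in the direction of its RNA.

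Mmp13 footprints rested on few counts, 6 and 11 in the control against 42 and 23 with H2O2 at 7 h (2.05, SE 0.63, edgeR adjusted p = 0.027). DESeq2 gave 2.06 with an adjusted p of 0.0674, so the call depended on the method. The call was lost without control replicate 1 (1.56, adjusted p = 0.164), without H2O2 7 h replicate 1 (1.51, adjusted p = 0.265) and without H2O2 7 h replicate 2 (2.37, adjusted p = 0.0598). With H2O2 at 2 h, where its RNA rose, the footprint libraries held 0 and 8 counts of it.

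With KCl at 7 h, Timp3 footprints rose from 255 and 205 CPM to 478 and 393 CPM (0.92, SE 0.22, edgeR adjusted p = 0.01), as its RNA did. Timp1 fell from 613 and 466 CPM to 302 and 282 CPM (-0.89, SE 0.24, edgeR adjusted p = 0.02) and Adamtsl4 from 25.4 and 26.7 CPM to 13.1 and 10.2 CPM (-1.17, SE 0.25, edgeR adjusted p = 0.007). None of the 3 groups overlapped its control, yet each call was lost without some library. That of Timp3 was lost without control replicate 2 (0.77, adjusted p = 0.0938) and without KCl 7 h replicate 1 (0.78, adjusted p = 0.0832). That of Timp1 was lost without control replicate 1 (-0.67, adjusted p = 0.131), without KCl 7 h replicate 1 (-0.94, adjusted p = 0.0895) and without KCl 7 h replicate 2 (-0.84, adjusted p = 0.124). That of Adamtsl4 was lost without KCl 7 h replicate 2 (-0.98, adjusted p = 0.0716).

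**Figure D4:**
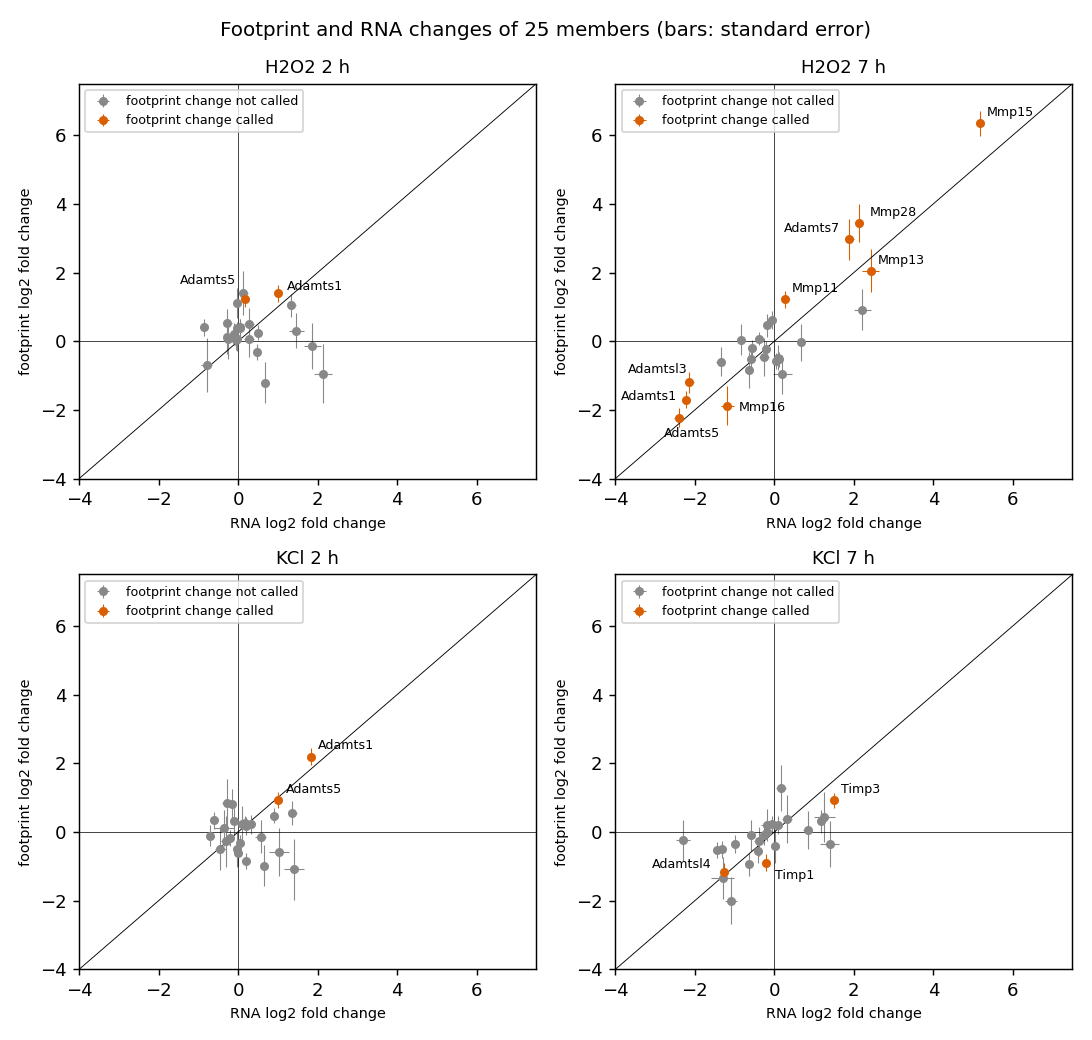
Log2 fold change over control in footprints (vertical) against RNA (horizontal) for the 25 members tested in footprints, 1 panel per stress and time, with standard errors as bars, the diagonal of equal change, and members called in footprints in orange. Mmp15 lies far from the rest at 7 h of H2O2 (RNA 5.17, footprints 6.34), and Adamts1 lies up at 2 h of KCl and down at 7 h of H2O2 in both measures.

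Translational efficiency, the footprints of a gene relative to its RNA, was tested as an interaction over the 20 libraries of the H2O2/KCl experiment. It gave 2 members higher and 2 lower with H2O2 at 2 h against 11.4% of all genes called (3.98% higher, 7.46% lower), 1 higher with H2O2 at 7 h against 9.27% (4.69% higher, 4.57% lower), 1 higher and 1 lower with KCl at 2 h against 12.8% (3.58% higher, 9.18% lower) and 1 higher with KCl at 7 h against 5.57% (1.69% higher, 3.88% lower). Mmp11 was higher in 3 of these 4 comparisons, by 1.19 (SE 0.22, edgeR adjusted p = 0.0029) and 0.95 (SE 0.21, edgeR adjusted p = 0.0085) at 2 h and 7 h of H2O2 and by 0.95 (SE 0.22, edgeR adjusted p = 0.0098) at 2 h of KCl, the last lost without footprint KCl 2 h replicate 1 (0.72, adjusted p = 0.0743). The KCl call was also lost with limma voom (0.94, adjusted p = 0.0614). At 2 h of H2O2 and KCl the RNA of Mmp11 fell while its footprints, 31.3 and 24.6 CPM and 30.2 and 22.6 CPM against 23.2 and 18.1 CPM, were not called.

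The other calls of translational efficiency depended on single libraries, and some also on the method. With only the groups compared, those of Adamts5 and Mmp3 at 2 h of H2O2 were lost (edgeR adjusted p = 0.0829 and 0.0721). Limma voom did not keep that of Mmp3 (-1.90, adjusted p = 0.0968). With H2O2 at 2 h, Adamts5 was at 1.03 (SE 0.25, edgeR adjusted p = 0.016), lost without RNA H2O2 2 h replicate 1 (0.96, adjusted p = 0.0571), without RNA control replicate 2 (0.92, adjusted p = 0.0634) and without footprint control replicate 1 (0.69, adjusted p = 0.0644). Mmp13 was at -3.05 (SE 0.84, edgeR adjusted p = 0.027), on the 0 and 8 counts given above, lost without RNA H2O2 2 h replicate 1 (-2.89, adjusted p = 0.0543), RNA control replicate 1 (-2.93, adjusted p = 0.0692) or footprint control replicate 2 (-2.47, adjusted p = 0.171). Without footprint H2O2 2 h replicate 2 only the library with 0 counts is left, and no usable value remains. Mmp3 was at -1.83 (SE 0.57, edgeR adjusted p = 0.048), with footprints of 3.33 and 11.1 CPM against 27.1 and 11.5 CPM in the control. The Mmp3 call was lost when any of 6 of the 8 libraries was left out, from -1.06 (adjusted p = 0.342) without footprint control replicate 1 to -1.94 (adjusted p = 0.0824) without RNA H2O2 2 h replicate 2. It was likewise lost without RNA H2O2 2 h replicate 1 (-1.74, adjusted p = 0.102), RNA control replicate 1 (-1.86, adjusted p = 0.1004), RNA control replicate 2 (-1.82, adjusted p = 0.101) and footprint H2O2 2 h replicate 1 (-1.56, adjusted p = 0.104).

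With KCl, Timp1 was at -1.05 (SE 0.27, edgeR adjusted p = 0.014) at 2 h, lost without RNA control replicate 2 (-0.93, adjusted p = 0.0695), RNA KCl 2 h replicate 1 (-0.95, adjusted p = 0.0509) or footprint control replicate 1 (-0.84, adjusted p = 0.0690). Adamts1 was at 0.95 (SE 0.26, edgeR adjusted p = 0.043) at 7 h, a call lost with only the groups compared (0.96, edgeR adjusted p = 0.0807). Its call was lost without RNA control replicate 1 or 2 (0.97 and 0.95), RNA KCl 7 h replicate 1 or 2 (0.997 and 0.92), footprint control replicate 1 (0.63) or footprint KCl 7 h replicate 1 or 2 (0.92 and 0.99), with adjusted p from 0.0927 to 0.143.

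The authors also deposited calls of DoGs, transcripts that continue past the end of a gene, and of read-in, transcription from an upstream gene that reaches its downstream neighbour. Of 6399 pairs of neighbouring genes, 26 held a member, with the member upstream in 14, downstream in 13 and on both sides in 1 (Adamts5 and Adamts1). No read-in call among the 16 RNA libraries fell on a pair with a member downstream, and read-in was called in 1.38% of all combinations of a pair and a library (349 pairs had a call in at least 1 library). The single read-in call of a pair with a member was from Adamtsl5 into Pcsk4, in replicate 1 of H2O2 at 2 h. The deposited read-in estimate of that pair, a ratio whose formula was not given, was 0.617 and 0.304 with H2O2 at 2 h, 0.493 and 0.259 with KCl at 2 h and 0.0264 and 0 in the control.

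DoG calls over the 14 pairs with a member upstream numbered 81, which is 36.2% of their combinations with the 16 libraries against 28.5% over all pairs. The pairs from Mmp28 into Gas2l2 and from Timp1 into Spaca5 were called in all 16 libraries, controls included, and that from Mmp15 into Ccdc113 in 5 libraries, among them both of H2O2 at 7 h. For Mmp25 the upstream neighbour is Thoc6. A DoG of Thoc6 was called in both libraries of H2O2 at 2 h, KCl at 2 h and 42 °C, in 1 library of KCl at 7 h and in none of the 4 control libraries. The read-in estimate from Thoc6 into Mmp25 was 0.141 and 0.630 with H2O2 at 2 h, 0.837 and 0.469 with KCl at 2 h, 0.288 and 0.523 at 42 °C and 0.183 and 0.229 with H2O2 at 7 h. It was 0 in both libraries of each control, of 44 °C and of KCl at 7 h. Mmp25 was not called at 42 °C (-0.53, SE 0.24, edgeR adjusted p = 0.071) or with H2O2 at 7 h (0.12, SE 0.31, edgeR adjusted p = 0.73), and the part of such reads in the Mmp25 counts was not tested. These pairs were chosen after their values were seen.

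Genes that act with these families were described from 5 lists, whose counts are to be read against all genes tested: at 44 °C 35.4% of these were called higher against 35.7% lower. The same shares were 31.7% and 31.9% at 42 °C, 27.3% and 26.5% with H2O2 at 2 h, 39.4% and 31.1% with H2O2 at 7 h, 27.2% and 27% with KCl at 2 h, and 37.2% and 31.6% with KCl at 7 h. The AP-1 and ETS transcription factors were all tested (11 genes). With H2O2, 10 rose at 2 h (median log2 fold change 1.33; Fosb 5.37, Fosl1 2.79), and 8 rose and 3 fell at 7 h (median 1.62; Fosl1 3.14, Fos 2.91). With KCl, 9 rose and 1 fell at 2 h (median 0.73; Fosb 2.10, Fos 2.10), while 4 rose and 6 fell at 7 h (median -0.41; Fosl1 -1.07, Jun -1.001). In heat, 9 rose and 2 fell at 42 °C (median 0.67; Fos 1.87, Fosb 1.85), while 3 rose and 4 fell at 44 °C (median -0.02; Ets2 -0.50, Jun -0.46).

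Of the substrates and matrix partners of ADAMTS enzymes, 8 of 11 tested genes fell at 44 °C and 1 rose (median -0.88, Acan -3.27, Fbn2 -1.38). Acan was near the floor, at 0.082 and 0 CPM at 44 °C against 0.34 and 0.54 CPM in the control, so the size of its fall is uncertain. At 42 °C 6 fell and 4 rose (median -0.18, Fbn2 -1.09, Thbs2 -1.04). With H2O2 at 2 h 3 of 10 rose (median 0.11; Thbs1 0.47, Lox 0.30). With H2O2 at 7 h, 8 of 10 fell and 1 rose (median -0.96), and the proteoglycan versican (Vcan) rose by 2.41 while thrombospondin 1 (Thbs1) fell by 2.69 on the log2 scale. With KCl at 2 h, 7 of 10 rose (median 0.38; Thbs1 1.08, Thsd4 0.61), and at 7 h 4 rose and 4 fell (median 0.02; Thsd4 2.34, Comp 1.94).

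Of the plasminogen system, whose protease plasmin can activate MMP precursors, 4 of 8 tested genes rose at both times of H2O2, led by Plaur (1.98) at 2 h and by Serpine2 (4.12) and Plau (3.83), the urokinase gene, at 7 h, when 2 fell. With KCl, 5 of 8 rose at 2 h (Plaur 1.31, Plau 0.95), and 3 rose and 3 fell at 7 h. At 44 °C 2 rose and 5 fell, and at 42 °C 3 rose and 1 fell. Of genes for MMP activation and control at the cell surface, 2 of 9 rose and 4 fell at 44 °C, where Reck, a membrane inhibitor of MMPs, fell by 1.52 on the log2 scale, and 3 rose and 4 fell at 42 °C. At 2 h 4 rose with H2O2, and 5 rose and 1 fell with KCl. At 7 h of H2O2 4 rose and 3 fell. At 7 h of KCl 5 of 9 rose and 2 fell, led by Itgav (1.30) and Furin (1.23), the protease that activates Mmp14 and Mmp11 among others. Of the ADAM membrane proteases, 5 of 8 tested genes fell and 2 rose at 42 °C, and 5 fell and 1, Adam19 (2.73), rose with H2O2 at 7 h. The other counts of this list were 2 higher and 3 lower at 44 °C, 4 and 0 with H2O2 at 2 h, 5 and 1 with KCl at 2 h, and 3 and 3 with KCl at 7 h.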

How the data were processed

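PolyA-selected RNA of NIH3T3 cells (16 libraries, 8 groups) and ribosome footprints (10 libraries, 5 groups) were measured with 2 replicates per group, the groups being those of the labels. Per the labels' protocols, a commercial kit was used for RNA and an earlier method of the group for footprints. The submitters' processing notes name STAR, RSEM, Bowtie and the build mm10, without versions. Expected counts of each gene, which RSEM obtains by dividing ambiguous reads among genes, were deposited by the authors, with TPM values of the same libraries. The deposited expected counts were whole numbers. The authors also deposited DoG and read-in calls and a read-in estimate, a ratio without its formula. Another 12 columns, whose names match no labelled sample, were left out.

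Counts were tested with the quasi-likelihood test of edgeR 4.0.16 (R 4.3.3), after TMM normalization and filterByExpr. P-values were adjusted by Benjamini-Hochberg over every gene tested, with a threshold of 0.05. The spread was estimated over all groups of an experiment. Translational efficiency was an interaction term with TMM within each kind of library. The fits were checked on simulated counts. Alternatives were DESeq2 1.42.0, limma 3.58.1 on log2(TPM + 1) for genes with a mean of at least 1 TPM, limma voom for translational efficiency, another size factor, no filter, the compared groups alone, a log2 fold change of at least 1, a replicate block, and each library left out. Precision is limited by 2 libraries per group and, in footprints, by 1460751 to 5168537 counts per library. Promoter sequences and positions are from RefSeq (GRCm38.p6).

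Members and gene lists were chosen with earlier results of these data known. Genes given with their values were the Timp genes, the 4 members of highest mean TPM, for each RNA comparison with control the 5 called members of largest change (a group mean of at least 1 CPM, libraries not overlapping), every member called in footprints or translational efficiency, and, of the gene lists, some of the called genes of largest change (up to 2 in each comparison printed). Another gene is not reported here. Mmp1b, Adamtsl2, Mmp2, Adamts2 and Adamts14 were named after their values were seen.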

Additional observations from a re-analysis of the deposited data

Results flagged for a closer look

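For 26 members given with their values, the response at 7 h was compared with that at 2 h of the same agent by edgeR (the contrast of the 2 times, which share their control). It passed the test for 20 members with H2O2, 4 of them higher at 7 h and 16 lower, and for 18 with KCl, 5 higher and 13 lower. Most of these members were given because of a large change or a call, and 73.4% (H2O2) and 68.8% (KCl) of all genes were called in the same contrasts, so the counts say nothing particular about the members. Values are log2, 7 h minus 2 h.

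With H2O2, the members higher at 7 h were Mmp15 (5.42), Adamts7 (2.67), Mmp28 (1.99) and Mmp11 (1.13). The proteoglycanases Adamts1 (-3.24), Adamts5 (-2.58) and Adamts4 (-0.82) were lower, as were Adamts16 (-2.01) and Adamts6 (-1.24). Of the ADAMTS-like genes Adamtsl3 (-2.10) and Adamtsl1 (-1.72) were lower. The MMPs Mmp25 (-2.78), Mmp9 (-2.29), Mmp16 (-1.45), Mmp23 (-1.26), Mmp19 (-1.08) and Mmp14 (-0.37) were lower, and so were the inhibitors Timp2 (-0.61), Timp1 (-0.43) and Timp3 (-0.38). Adamts1, Adamts7 and Mmp11 were called in opposite directions at 2 h and 7 h.

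With KCl, the members higher at 7 h were Adamts16 (2.26), Adamtsl1 (2.17), Adamts7 (0.62), Timp3 (0.59) and Mmp28 (0.45). Adamts1 (-3.27), Adamts5 (-2.32) and Adamts4 (-0.45) were lower, as were Adamtsl4 (-1.06) and Adamtsl3 (-0.58). The MMPs Mmp25 (-2.17), Mmp15 (-1.84), Mmp23 (-0.94), Mmp16 (-0.75), Mmp11 (-0.39), Mmp14 (-0.36) and Mmp19 (-0.29) were lower, and so was Timp1 (-0.41). Adamts1, Adamts5, Adamts16 and Adamtsl3 were called in opposite directions at 2 h and 7 h. For Adamtsl3 this rests on weak calls. That at 2 h (0.33) was lost without control replicate 1 (0.31, edgeR adjusted p = 0.0506), without KCl 2 h replicate 2 (0.19, adjusted p = 0.138) and on log2 TPM values (0.20, adjusted p = 0.147). That at 7 h (-0.26) was lost when any 1 of the 4 libraries was left out (-0.27 to -0.24, adjusted p = 0.0721 to 0.114). Timp3, Mmp15, Adamts16, Adamtsl1 and Mmp11 differed between the times in opposite directions in the 2 agents, a contrast of contrasts that was not tested.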

How the results depend on the processing

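None of the named values changed sign under an alternative. Of 977 values in RNA 923 stayed on their side of the threshold and 54 lost the call, of 160 in footprints 133 and 27, and of 103 in translational efficiency 74 and 29. Counts of called members moved by over 1.5 times as follows, and the causes were not tested except where a stricter rule or fewer libraries define the alternative. A minimum of 1 for the size of the log2 fold change left 10 members of 27 at 44 °C, 4 of 23 at 42 °C, 10 of 29 between the heat groups, 10 of 17 (2 h) and 12 of 21 (7 h) for H2O2, 7 of 16 (2 h) and 13 of 23 (7 h) for KCl, 9 of 21 between the times of KCl, 5 of 18 and 14 of 27 between H2O2 and KCl at 2 h and 7 h. In footprints it left 1 of 2 and 1 of 3 at 2 h and 7 h of KCl, and in translational efficiency 0 of 1 for H2O2 (7 h), 1 of 2 for KCl (2 h) and 0 of 1 for KCl (7 h). On log2(TPM + 1) with limma, 10 members were called at 2 h of H2O2 and 10 between H2O2 and KCl at 2 h, and in footprints 0 for H2O2 and 1 for KCl, both at 2 h. With only the groups compared, 0 were called in footprints at 2 h of H2O2, and in translational efficiency 2 at each time of H2O2 and 0 for KCl (7 h). Without a filter translational efficiency gave 8 (2 h) and 2 (7 h) for H2O2, and with limma voom 1 for KCl (2 h).

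With 1 library left out at a time, where the lone library of a group is assumed to vary like the other groups, the members called were 26 to 28 at 44 °C, 17 to 20 at 42 °C, 28 to 30 between the heat groups, 14 to 17 (2 h) and 19 to 20 (7 h) for H2O2, 11 to 16 (2 h) and 19 to 22 (7 h) for KCl, 23 to 24 between the times of H2O2, 18 to 21 between those of KCl, and 13 to 16 and 21 to 25 between the agents at 2 h and 7 h. In footprints they were 0 to 2, 7 to 8, 1 to 2 and 1 to 5 (H2O2 2 h and 7 h, KCl 2 h and 7 h), and in translational efficiency 1 to 7, 1 to 2, 1 to 5 and 0 to 2. The Mmp13 translational efficiency at 2 h of H2O2 has no usable value without footprint H2O2 2 h replicate 2, since the remaining library holds 0 counts of it.

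Replicate numbers are shared across groups, but nothing in the labels ties them to a culture or day. Same-numbered libraries deviated together with correlations of 0.036 to 0.11 in the heat RNA libraries, -0.13 to 0.17 in the H2O2/KCl RNA libraries and -0.40 to 0.44 in footprints. With the replicate number as a block, members called in translational efficiency went from 1 to 0 at 7 h of KCl (Adamts1, 0.96, adjusted p = 0.0506), from 4 to 6 at 2 h of H2O2 and from 2 to 3 at 2 h of KCl, and no RNA or footprint count moved by more than 1. The depth of the footprints, with 25 of 51 members tested, limits what can be seen there.

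The background of all genes called, read beside the members' counts, was itself unsteady in footprints and translational efficiency. In footprints at 2 h of H2O2, 201 genes were called, 315 without a filter, 27 with only the groups compared, 45 on log2(TPM + 1) and 37 without control replicate 2. At 2 h of KCl, 723 footprint calls became 463 with only the groups compared, 455 on log2(TPM + 1) and 211 without KCl 2 h replicate 2. At 7 h, 2925 calls became 1681 without H2O2 replicate 2, and 2148 became 996 without KCl replicate 2. In translational efficiency, limma voom called 659 genes against 1199 and 642 against 971 for H2O2 (2 h, 7 h), and 730 against 1337 and 221 against 584 for KCl, and with only the groups compared 600 were called for H2O2 at 2 h.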
